A study of Homo sapiens with 24 samples.

Results

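RT112 is an established human bladder cancer cell line that carries a fusion of FGFR3, a receptor tyrosine kinase, with TACC3, a protein of the mitotic spindle. The 24 expression arrays of this study include 9 with a low TACC3 signal, and these 9 low-TACC3 arrays are described here against the other 15. An array was counted as low when the TACC3 probe set lay below a limit on the log2 scale set between 11.43, the highest low value, and 11.82, the lowest of the other values, so the 2 sides were defined by a measured value and not by a labelled condition. For that reason no test was made between the sides, neither side is called treated or depleted, and all differences between them are descriptions. The study's labels describe RT112 cells transduced with doxycycline-inducible hairpin RNAs, 3 against FGFR3 (named 2-4, 4-1 and 6-16) and 1 against EGFP, a jellyfish gene that human cells lack. Each line was labelled as kept for 48 h with 1 µg/ml doxycycline or without it, 3 arrays a group, and all cells were in medium with 1% serum. The labels do not say whether a line was a pool or a clone, or whether the arrays of a group came from separate cultures.

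FGFR3 signals through the RAS and ERK pathway and through PI3K and AKT. ERK output is commonly read from genes that it induces and that feed back on it, such as the DUSP phosphatases and the ETV transcription factors. AKT and mTOR raise the activity of the SREBP transcription factors, which drive the genes of cholesterol and fatty acid synthesis, and AKT keeps the FOXO transcription factors out of the nucleus. The fusion keeps the kinase part of FGFR3 and the coiled-coil end of TACC3. The probe sets report on TACC3 and FGFR3 separately and none of them reads the junction, so the fusion transcript itself was not measured.

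The targeted gene was examined first on every array. TACC3 values were 10.49, 10.64 and 10.79 on 3 of the low-TACC3 arrays and 11.31, 11.34, 11.35, 11.38, 11.43 and 11.43 on the other 6 low ones, against a lowest value of 11.82, a median of 12.09 and a highest value of 12.62 on the other 15 arrays. No array lay between these values. In RNA of whole cultures, fewer cells with a transcript and less of it per cell cannot be told apart. FGFR3 has 2 probe sets, and the dimmer one was also low on the same 9 arrays, with a lowest value of 8.71, a median of 9.21 and a highest value of 9.88, against 10.34, 10.59 and 11.20 on the other arrays. The brighter FGFR3 probe set did not divide the arrays in that way. It had 11.13, 11.85 and 12.20 on the low-TACC3 arrays, against 11.36, 12.05 and 12.34 on the other arrays, and the ranges overlapped. TACC3 and the dimmer FGFR3 probe set are the values the rule used, so their division of the arrays was fixed by the choice. The overlap of the brighter probe set lies between the sets of like arrays described below. Among arrays with low ARMCX3 it ran from 11.83 to 11.96 on the low-TACC3 arrays, against 12.19 to 12.22 on the others. With high GAS1 it ran from 12.13 to 12.20 on the low-TACC3 arrays, against 12.27 to 12.34 on the others, and in the set marked by this probe set itself from 11.13 to 11.34 on the low-TACC3 arrays, against 11.36 to 11.43 on the others. Within each set it was thus lower on the low-TACC3 arrays without overlap, with differences of -0.37, -0.16 and -0.14. Such separation was common. In these sets 2805, 3799 and 4138 of 19775 genes were lower without overlap, in the same order. In each of the 3 sets 1319 genes (6.67%) were lower in this way, so the separation of the brighter probe set says little about FGFR3.

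**Figure D1:**
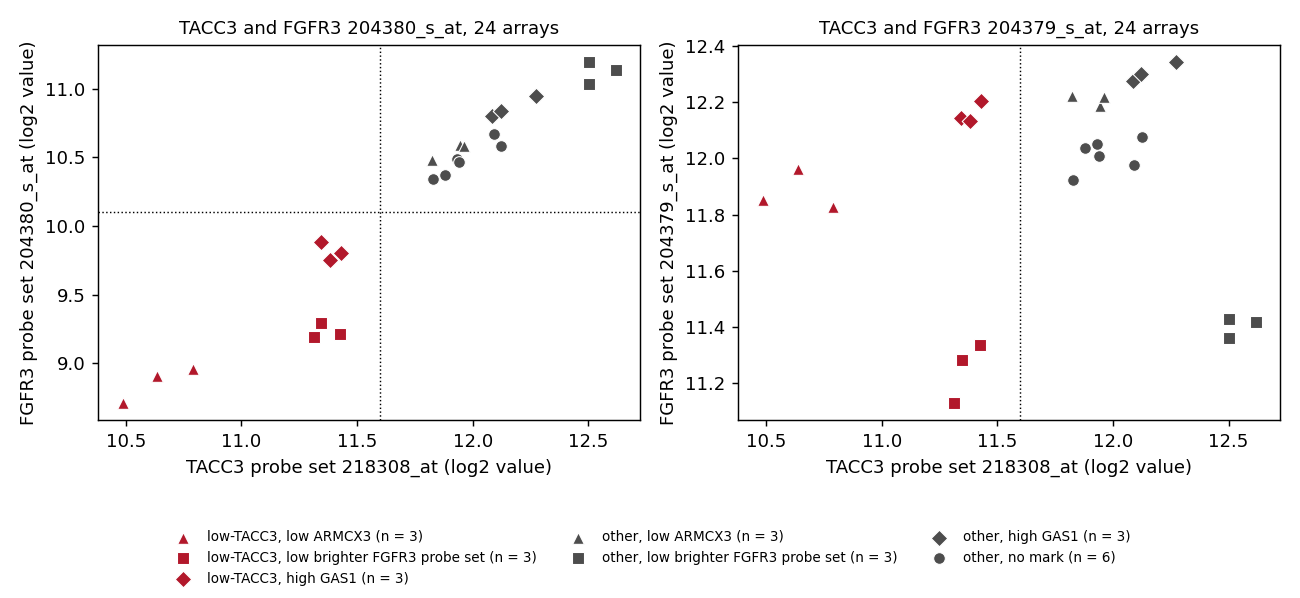
Each point is 1 of the 24 arrays, with the TACC3 log2 value on the horizontal axis and an FGFR3 log2 value on the vertical axis (the dimmer probe set on the left, the brighter one on the right). Red marks the 9 low-TACC3 arrays, grey the other 15, shapes mark the sets of like arrays described in the text, and dotted lines show the limits of the rule. In the left panel the 9 red points lie left of the vertical and below the horizontal line, whereas in the right panel the red and grey points overlap in height.

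The 9 low-TACC3 arrays were spread over 7 of the 8 labelled groups. By label, 3 were EGFP arrays (replicate 3 with and replicates 1 and 3 without doxycycline). In the 2-4 line they were replicate 2 with and replicate 2 without doxycycline, in the 4-1 line replicate 1 with and replicates 1 and 2 without it, and in the 6-16 line replicate 2 with it. Of the 9 arrays, 4 were labelled with and 5 without doxycycline, against 8 and 7 of the other 15. Among the 9 arrays labelled as an FGFR3 hairpin line with doxycycline, 3 were low, and no labelled group was wholly low. The targeted gene thus went against the labels, and each array is named below as the array labelled so.

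The low-TACC3 arrays were of 3 kinds. For each of the 9, the 2 arrays that correlated best with it were also low, over the 1721 genes with a range above 1 on the log2 scale, and the 9 fell into 3 sets of 3 in this way. The correlation with the nearest 2 arrays was 0.93 or higher, and that with the next nearest was 0.52 or lower. These sets were read from the values and not from labels, and no test goes with them. ARMCX3, an armadillo repeat gene of the X chromosome, had 4.25, 4.68 and 4.79 in the first set and 10.19 to 10.31 on the other 6 low-TACC3 arrays. GAS1, a growth arrest gene with a membrane anchor, had 8.95, 8.96 and 9.47 in a different set and 5.73 to 6.41 on the other 6. The remaining set had the lowest values of the brighter FGFR3 probe set, 11.13, 11.28 and 11.34. The arrays with low ARMCX3 were also the 3 with the lowest TACC3.

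Each of these marks was also present on 3 of the other 15 arrays, and 6 of the 15 had none of them. ARMCX3 was 4.63, 4.87 and 4.93 on 3 of the other arrays, GAS1 was 8.52, 9.03 and 9.14 on a different 3, and the brighter FGFR3 probe set was 11.36, 11.42 and 11.43 on 3 more. Sets of 3 were thus not particular to the low side. Each of these marked arrays also correlated best with the 2 others of its set, at lowest 0.89, and with the next nearest at highest 0.50. Among the low-TACC3 arrays the widest ranges were those of C16orf54 and ARMCX3, at 6.08 and 6.06 on the log2 scale. C16orf54 had 4.87 to 5.26 on the arrays with low ARMCX3 and 10.55 to 10.95 on the other 6 low-TACC3 arrays. AOC1, the diamine oxidase gene, had 11.43 to 11.59 on the arrays with the low FGFR3 probe set and 7.16 to 7.46 on the other 6. POF1B, an actin-binding gene of epithelia, had 9.66 to 9.81 on the arrays with low ARMCX3 and 5.50 to 5.88 elsewhere on the low side. LRRN1 was highest with high GAS1 (8.55 to 8.65) and lowest with low ARMCX3 (3.58 to 3.70), and EPHX4, an epoxide hydrolase family gene, was lowest with high GAS1 (3.27 to 4.38). Over all genes, 587 ranged over more than 1 log2 unit on the low-TACC3 arrays, and 27 of these were among the genes that divided the sides.

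**Figure D2:**
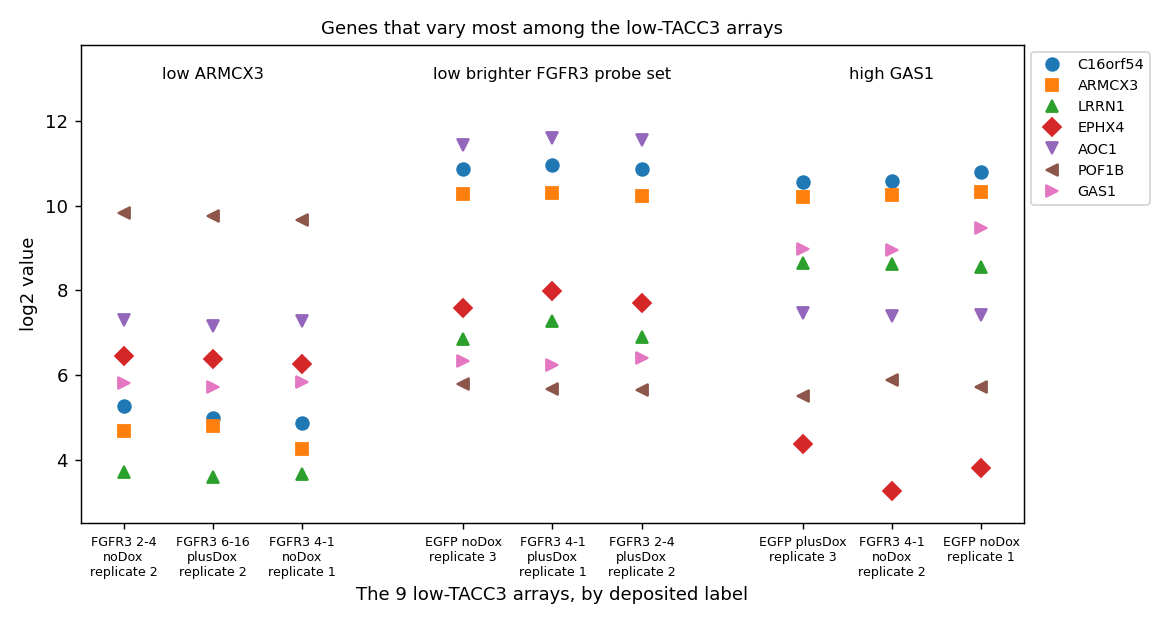
The vertical axis is the log2 value of 7 genes chosen for a wide range among the 9 low-TACC3 arrays (6 by the size of that range, and GAS1), and the horizontal axis lists those arrays by deposited label in the 3 sets. Within each set the 3 arrays lie close together, and the labels within a set differ in line, doxycycline or replicate.

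Across all 9 low-TACC3 arrays the genes in common were then sought. A gene was counted as lower when its highest value on the low-TACC3 arrays was below its lowest value on the other 15, and as higher in the reverse case. Of 19775 genes, 612 (3.09%) were lower and 574 (2.90%) were higher by this rule. Among them 38 lower and 31 higher genes had medians more than 1 log2 unit apart. The gap between the sides had a median of 0.09 for the lower and 0.09 for the higher genes, and it exceeded 0.5 for 25 lower and 20 higher genes. In settings added after the data were seen, there were 1588 lower and 1146 higher genes without the arrays with low ARMCX3. There were 781 and 1182 without those with high GAS1, and 762 and 671 without those with the low FGFR3 probe set. Without the arrays that had none of these marks there were 700 and 683. Leaving out arrays can only keep or raise such counts, and why the counts differed between these settings was not tested. The median difference over all genes was -0.0082. The arrays' degradation controls moved with the side as well. The excess of 3' over 5' signal for GAPDH was 0.28, 0.37 and 0.42 (lowest, median and highest) on the low-TACC3 arrays, against 0.20, 0.26 and 0.29 on the other arrays, and that for ACTB was 0.79, 1.01 and 1.17 on the low-TACC3 arrays, against 0.70, 0.83 and 0.97 on the other arrays. The part of RNA quality in the differences between the sides was not tested.

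MMP1, LOXL1, FGFBP1, PLAT, LRP8 and MMP10 were among the lower genes with the widest gaps. MMP1, the interstitial collagenase, had 4.35, 5.96 and 6.51 on the low-TACC3 arrays, against 8.68, 9.26 and 9.72 on the other arrays, which is 9.86-fold between the medians. These 3 values are the lowest, the median and the highest, as in all such sentences below. MMP1 had the widest gap of the lower genes, 2.16 log2 units. MMP10, stromelysin 2, had 6.58, 7.09 and 7.81 on the low-TACC3 arrays, against 8.55, 8.71 and 9.71 on the other arrays. PLAT, tissue plasminogen activator, had 10.22, 10.48 and 10.94 on the low-TACC3 arrays, against 11.86, 12.14 and 12.79 on the other arrays. MMP1, MMP10 and PLAT thus had no overlap between the sides. LOXL1, which cross-links elastin, had 8.53, 8.67 and 8.77 on the low-TACC3 arrays, against 9.82, 10.04 and 10.73 on the other arrays. FGFBP1 releases stored FGFs from the matrix and had 8.84, 9.01 and 9.15 on the low-TACC3 arrays, against 10.16, 11.00 and 11.38 on the other arrays, a 3.97-fold lower median. LRP8, a lipoprotein receptor, had 7.01, 7.79 and 8.17 on the low-TACC3 arrays, against 9.08, 9.22 and 9.49 on the other arrays.

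**Figure D3:**
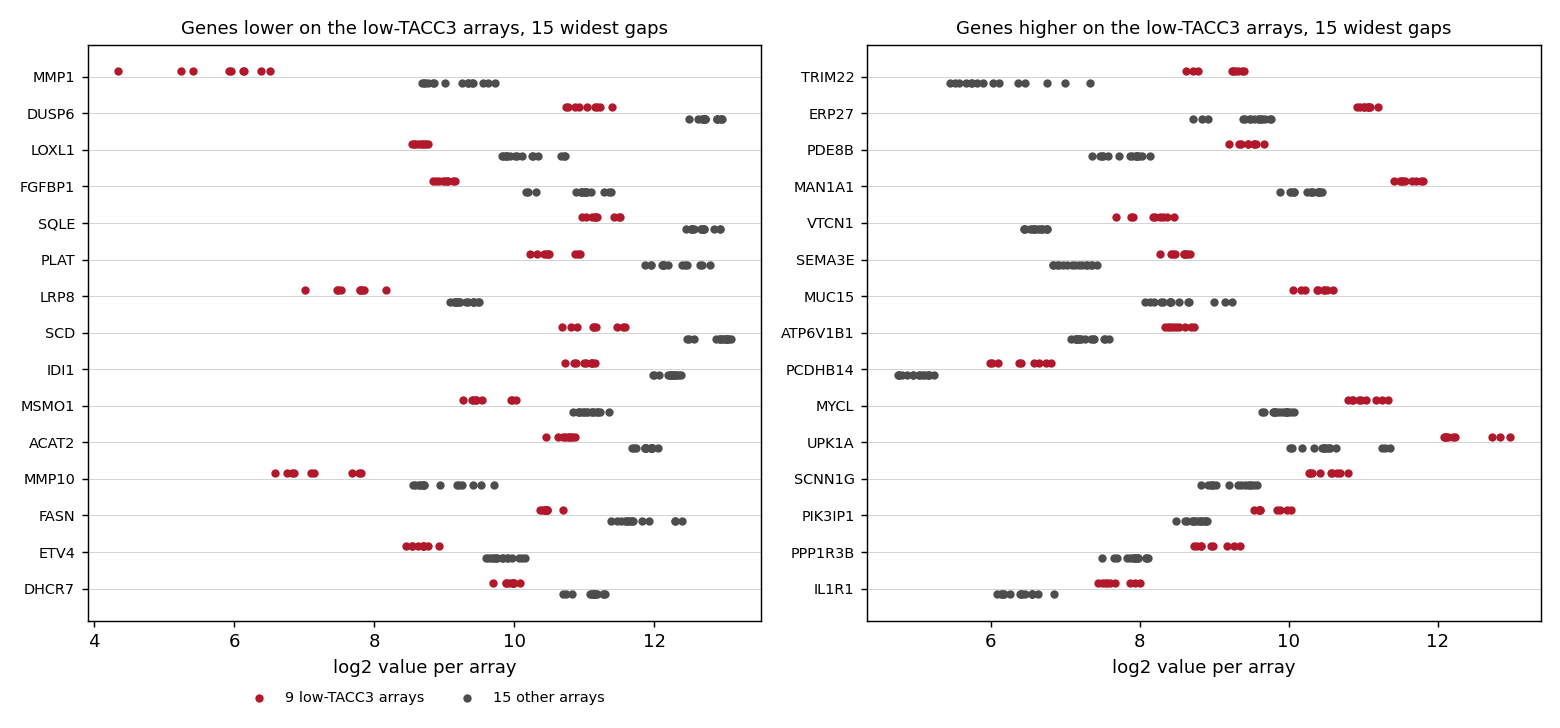
Points are the log2 values of single arrays for the 15 lower genes (left) and the 15 higher genes (right) with the widest gap between the sides, in order of that gap from the top. Red points above each line are the 9 low-TACC3 arrays and grey points below it the 15 other arrays, and for none of these genes do the ranges meet.

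Of 25 measured ERK output genes, 11 were lower on the low-TACC3 arrays, 1 was higher and 13 overlapped, with a median difference of -0.41. For this and each list below, the shares over all 19775 genes were 3.09% lower and 2.90% higher. The lists and their members were chosen with earlier results of these data known. A count above those shares is thus a description of the list and no independent support. DUSP6, the phosphatase that inactivates ERK, had 10.73, 11.04 and 11.40 on the low-TACC3 arrays, against 12.50, 12.73 and 12.97 on the other arrays, a 3.22-fold lower median. All 3 of its probe sets divided the sides. ETV4, an ETS transcription factor, had 8.45, 8.69 and 8.93 on the low-TACC3 arrays, against 9.60, 9.83 and 10.15 on the other arrays. PHLDA1 had 9.45, 10.35 and 10.65 on the low-TACC3 arrays, against 11.10, 11.54 and 11.82 on the other arrays, and all 6 of its probe sets divided the sides. The related ETV5, FOSL1 and SPRED2 were also lower, with differences of -0.91, -0.72 and -0.45. EPHA4, an ephrin receptor, was the higher member with 9.84, 10.13 and 10.40 on the low-TACC3 arrays, against 8.84, 9.18 and 9.45 on the other arrays, on 3 of its 5 probe sets. EGR1, FOS and SPRY1 overlapped, with differences of 0.12, 0.06 and 0.03, and so did CCND1 and MYC with -0.27 and -0.32.

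Among other growth factor receptors, FGFR2 and ERBB2 were higher. FGFR2, a paralogue of FGFR3, had 10.07, 10.27 and 10.43 on the low-TACC3 arrays, against 9.27, 9.45 and 9.88 on the other arrays, and 3 of its 11 probe sets divided the sides. ERBB2, a receptor of the EGFR family, had 11.54, 11.73 and 12.07 on the low-TACC3 arrays, against 11.03, 11.15 and 11.49 on the other arrays, on 1 of its 3 probe sets. ERBB3, its usual partner, had a difference of 0.60 and overlapped. The ligand gene HBEGF had 8.77, 8.96 and 9.10 on the low-TACC3 arrays, against 9.53, 9.78 and 10.11 on the other arrays, on 2 of its 4 probe sets. ERRFI1, which restrains EGFR, had a difference of -0.39. Of 12 measured genes of the EGFR family and its ligands, 2 were lower, 1 was higher and 9 overlapped, with a median of -0.02. Of 9 genes of FGF receptors and ligands, 1 was lower, 1 was higher and 7 overlapped, with a median of -0.03. With 3.09% lower and 2.90% higher over all genes, counts of 1 or 2 in such short lists say little about the lists. FGFR1 and EGFR had differences of 0.05 and -0.01.

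Cholesterol synthesis had the lowest median of the lists. Of 16 measured enzymes, 12 were lower, 0 were higher and 4 overlapped, with a median difference of -0.87. SQLE, squalene epoxidase, had 10.97, 11.15 and 11.51 on the low-TACC3 arrays, against 12.45, 12.67 and 12.94 on the other arrays, and all 4 of its probe sets divided the sides. MSMO1, an oxidase that removes sterol C4 methyl groups, had 9.27, 9.46 and 10.03 on the low-TACC3 arrays, against 10.84, 11.06 and 11.35 on the other arrays. HMGCS1, which makes the precursor of mevalonate, had 8.69, 8.88 and 9.59 on the low-TACC3 arrays, against 10.18, 10.34 and 10.47 on the other arrays. These enzymes cover early and late steps. IDI1, which isomerises the isoprenoid unit, had 10.72, 11.02 and 11.15 on the low-TACC3 arrays, against 11.99, 12.26 and 12.38 on the other arrays, on 2 of its 4 probe sets. ACAT2 and DHCR7, at the start and the end of the pathway, had differences of -1.11 and -1.16. MVD, LSS and EBP were lower too, with -0.88, -0.86 and -0.83, whereas MVK, PMVK, TM7SF2 and SC5D overlapped, with -0.23, 0.02, -0.03 and 0.04. For each of the 6 enzymes SQLE, MSMO1, HMGCS1, IDI1, ACAT2 and DHCR7, the difference among arrays with low ARMCX3 was the smallest of the 3 sets. For HMGCS1 the low arrays differed from the others with the same mark by -0.70 with low ARMCX3, -1.56 with the low FGFR3 probe set and -1.51 with high GAS1.

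Of 10 measured genes of sterol uptake and SREBP control, 5 were lower, 0 were higher and 5 overlapped, with a median of -0.37. INSIG1, which holds SREBP in the endoplasmic reticulum and is itself an SREBP target, had 10.02, 10.20 and 10.51 on the low-TACC3 arrays, against 11.10, 11.80 and 11.99 on the other arrays, on all 3 of its probe sets. STARD4, a sterol carrier, had 6.01, 6.26 and 6.47 on the low-TACC3 arrays, against 6.62, 6.91 and 7.10 on the other arrays. SREBF2, the gene of SREBP2, had 10.20, 10.35 and 10.47 on the low-TACC3 arrays, against 10.51, 10.65 and 10.78 on the other arrays. SREBF1, the gene of SREBP1, overlapped with 9.60, 10.47 and 10.70 on the low-TACC3 arrays, against 10.37, 11.21 and 11.34 on the other arrays. NPC1 was lower on 1 of its 4 probe sets, with a difference of -0.49, and TMEM97 on 1 of 4, with -0.43.

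The promoters of the 5 members of these 2 lists with the widest gaps, among those whose promoters can be shown, are printed because these genes lay lower together. Each run holds 250 bases before and 50 after the start of the gene in RefSeq, build GRCh38.p14, 5′ to 3′ on the strand of the gene. Capitals mark matches on either strand to CCAAT, the NF-Y box that often stands beside sterol elements, to CACGTG, an E-box, or to the sterol element letters TCACNCCAC. The regions are chr10:1056655-1056954, minus strand for IDI1, chr4:165327419-165327718, plus strand for MSMO1, chr11:71448344-71448643, minus strand for DHCR7, chr5:43313363-43313662, minus strand for HMGCS1 and chr7:155297628-155297927, plus strand for INSIG1.
IDI1: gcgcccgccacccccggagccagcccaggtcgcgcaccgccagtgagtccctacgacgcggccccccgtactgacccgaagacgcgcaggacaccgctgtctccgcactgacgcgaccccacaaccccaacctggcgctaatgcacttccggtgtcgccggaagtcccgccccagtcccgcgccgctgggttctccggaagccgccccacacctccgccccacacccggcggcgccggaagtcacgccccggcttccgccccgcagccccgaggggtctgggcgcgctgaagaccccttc
MSMO1: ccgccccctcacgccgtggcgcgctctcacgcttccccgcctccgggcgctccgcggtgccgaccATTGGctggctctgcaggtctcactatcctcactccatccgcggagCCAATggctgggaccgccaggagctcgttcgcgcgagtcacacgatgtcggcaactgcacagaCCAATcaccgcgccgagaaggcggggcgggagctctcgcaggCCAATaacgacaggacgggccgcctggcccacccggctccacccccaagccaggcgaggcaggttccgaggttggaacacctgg
DHCR7: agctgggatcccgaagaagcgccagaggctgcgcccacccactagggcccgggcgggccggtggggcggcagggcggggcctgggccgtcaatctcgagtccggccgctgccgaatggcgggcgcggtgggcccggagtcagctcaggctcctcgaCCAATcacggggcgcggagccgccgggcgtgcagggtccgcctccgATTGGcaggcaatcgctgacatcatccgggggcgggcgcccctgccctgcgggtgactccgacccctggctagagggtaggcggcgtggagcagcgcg
HMGCS1: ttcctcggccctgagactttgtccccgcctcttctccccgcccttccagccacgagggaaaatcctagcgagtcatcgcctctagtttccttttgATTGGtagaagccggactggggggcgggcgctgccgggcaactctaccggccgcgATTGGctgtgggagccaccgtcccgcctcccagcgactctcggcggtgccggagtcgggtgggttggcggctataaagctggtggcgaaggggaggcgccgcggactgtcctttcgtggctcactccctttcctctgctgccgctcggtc
INSIG1: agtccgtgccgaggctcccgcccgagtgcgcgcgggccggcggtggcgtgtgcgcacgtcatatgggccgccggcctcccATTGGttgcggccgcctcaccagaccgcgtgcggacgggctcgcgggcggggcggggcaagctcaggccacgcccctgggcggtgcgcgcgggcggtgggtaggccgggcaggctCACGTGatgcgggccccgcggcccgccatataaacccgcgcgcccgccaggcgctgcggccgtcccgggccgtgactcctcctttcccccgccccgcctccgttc
CCAAT was found 4 times in MSMO1, 2 times each in DHCR7 and HMGCS1 and 1 time in INSIG1, which also held 1 CACGTG, and no match was found in IDI1. Of the 17 lower members of both lists, 15 had a promoter in the table. CCAAT was in 13 of these 15, where 35.7% of 27305 promoters of this length hold it. TCACNCCAC was in 1 and CACGTG in 2, where 1.15% and 7.43% of all promoters hold them. These 15 come from lists of sterol genes chosen with earlier results known, and the promoters of the overlapping members were not counted. The shares thus cannot be tied to the differences between the sides, and no test was made of them. A match is a stretch of letters and not a shown binding site.

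Fatty acid synthesis and desaturation followed. Of 16 measured genes, 8 were lower, 0 were higher and 8 overlapped, with a median of -0.62. SCD, stearoyl-CoA desaturase, had 10.69, 11.13 and 11.58 on the low-TACC3 arrays, against 12.47, 12.98 and 13.09 on the other arrays, a 3.61-fold lower median, and all 4 of its probe sets divided the sides. FASN, fatty acid synthase, had 10.37, 10.44 and 10.69 on the low-TACC3 arrays, against 11.39, 11.67 and 12.39 on the other arrays, on 1 of its 2 probe sets. The FASN values had 1 array apart from the rest. The array labelled 4-1 without doxycycline, replicate 1, had 10.69, and the next of the low-TACC3 arrays had 10.47. ME1, malic enzyme, had 7.57, 7.66 and 7.85 on the low-TACC3 arrays, against 8.30, 8.89 and 9.03 on the other arrays, on 2 of 3 probe sets. ELOVL5, an elongase, had 9.22, 9.44 and 9.67 on the low-TACC3 arrays, against 9.95, 10.62 and 10.71 on the other arrays, on 1 of 4 probe sets. ACLY and ACACA, which supply the building blocks, and ACSS2 were lower with -0.73, -0.50 and -1.01, and AGPAT2 and ACSL1 overlapped with 0.20 and 0.11. Of 7 measured LXR targets, none was lower or higher, and ABCG1, a sterol exporter, had 7.39, 7.69 and 9.64 on the low-TACC3 arrays, against 6.33, 6.66 and 9.78 on the other arrays.

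In the list of G1/S and replication genes, with 25 measured, 18 were lower on the low-TACC3 arrays, 0 were higher and 7 overlapped, with a median of -0.42 and all 25 differences below 0. CDC6, which loads the replicative helicase, had 7.60, 8.34 and 8.65 on the low-TACC3 arrays, against 9.11, 9.37 and 9.49 on the other arrays. MCM10, a replication initiation factor, had 7.93, 8.73 and 9.03 on the low-TACC3 arrays, against 9.30, 9.40 and 9.69 on the other arrays, on all 3 of its probe sets. POLE2, CDC45 and E2F1 were lower with -0.69, -0.66 and -0.28. For CDC6 the difference from the other arrays with the same mark was -1.65 with low ARMCX3, -1.03 with the low FGFR3 probe set and -0.88 with high GAS1. In the set with the low FGFR3 probe set, PRIM1 and TYMS differed by 0.05 and 0.01. Of 22 genes of G2/M and mitosis, 1 was lower, 0 were higher and 21 overlapped, with a median of -0.21 and all 22 differences below 0. That sign was not shared by every set. With the low FGFR3 probe set TOP2A, NUSAP1, CENPF, TTK, KIF20A and BUB1B were above 0, from 0.0006 to 0.25, and the others below. With low ARMCX3 and with high GAS1 all 22 were below 0. CDC20, an activator of the anaphase complex, had 10.13, 10.63 and 10.75 on the low-TACC3 arrays, against 10.77, 11.09 and 11.29 on the other arrays. Of 11 genes of CDK inhibitors and D cyclins, all 11 overlapped, with CDKN1C at 0.42.

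Of 14 measured ribosome biogenesis genes, 8 were lower and 6 overlapped, with a median of -0.34. NOP16 had 9.91, 10.01 and 10.20 on the low-TACC3 arrays, against 10.46, 10.56 and 10.76 on the other arrays, on 2 of 4 probe sets. NOP58, WDR12 and the methyltransferase gene FBL had differences of -0.49, -0.44 and -0.36, and WDR12 was lower on 1 of 3 probe sets. Of 22 genes of glycolysis and hypoxia, 8 were lower, 2 were higher and 12 overlapped, with a median of -0.19. PKM, pyruvate kinase, had 12.61, 12.68 and 13.09 on the low-TACC3 arrays, against 13.18, 13.34 and 13.66 on the other arrays, on 1 of 2 probe sets, and GPI had a difference of -0.62. The higher members were PFKFB3, a regulator of glycolytic flux, with 10.31, 10.50 and 10.66 on the low-TACC3 arrays, against 9.21, 9.62 and 9.97 on the other arrays, and NDRG1 with a difference of 0.83. All 21 measured nuclear genes of oxidative phosphorylation overlapped, with a median of -0.23, and NDUFS1 had -0.49. Of 18 genes of ATF4 and amino acid stress, 2 were lower and 16 overlapped, with a median of -0.04. Over all genes 3.09% were lower, so this count says little about the list. SLC7A11, the cystine importer, had 6.43, 6.91 and 7.26 on the low-TACC3 arrays, against 7.67, 8.07 and 8.34 on the other arrays, on 2 of 3 probe sets. MTHFD2 had a difference of -0.40, on 1 of 2.

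Of 17 measured genes of FOXO and growth factor withdrawal, 6 were higher on the low-TACC3 arrays, 0 were lower and 11 overlapped, with a median of 0.33 and 16 differences above 0. PIK3IP1, which restrains PI3K, had 9.54, 9.62 and 10.03 on the low-TACC3 arrays, against 8.49, 8.78 and 8.90 on the other arrays. PDK4, which restrains pyruvate oxidation, had 5.89, 6.32 and 6.92 on the low-TACC3 arrays, against 4.59, 5.23 and 5.50 on the other arrays, on 1 of 3 probe sets. FBXO32, a ubiquitin ligase gene, and TSC22D3, a glucocorticoid-induced gene, had differences of 0.87 and 0.84. FBXO32 was higher on 2 of its 7 probe sets, and TSC22D3 and PIK3IP1 on 2 of 3 each. SESN1 and YPEL3 were higher with 0.33 and 0.51, and BNIP3 overlapped with -0.13.

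Some genes of the luminal urothelium, the surface layer of the bladder lining, were higher, but most overlapped. Of 19 measured luminal genes, 4 were higher, 1 was lower and 14 overlapped, with a median of 0.43. UPK1A, a uroplakin of the apical membrane, had 12.08, 12.21 and 12.97 on the low-TACC3 arrays, against 10.01, 10.49 and 11.36 on the other arrays, a 3.3-fold higher median. GATA3, a luminal transcription factor, had 13.46, 13.60 and 13.66 on the low-TACC3 arrays, against 13.09, 13.26 and 13.34 on the other arrays, on all 3 of its probe sets. SNX31, a sorting nexin of the urothelium, had a difference of 0.70. The lower member was the keratin gene KRT18, with 13.47, 13.59 and 13.67 on the low-TACC3 arrays, against 13.91, 13.96 and 14.08 on the other arrays. KRT8, PPARG and UPK3A overlapped, with differences of -0.46, -0.36 and -0.08. FABP4, a lipid chaperone, was chosen after its values were seen. It had 9.50, 9.69 and 12.13 on the low-TACC3 arrays, against 11.77, 12.69 and 13.30 on the other arrays, and is counted among the 14 luminal genes that overlapped. Of 11 measured genes of basal keratins and adhesion, all 11 overlapped, with a median of -0.0042. That median joins opposed differences, 6 below 0 and 5 above, from -0.77 for KRT5 to 1.11 for DST. In the sets with low ARMCX3, low FGFR3 probe set and high GAS1, KRT5 differed by -0.84, -1.10 and -0.65. LAMB3 differed by 0.83, 1.02 and 0.77, in the same order. DST, a basal plakin, had 9.70, 11.34 and 11.47 on the low-TACC3 arrays, against 9.41, 10.23 and 10.93 on the other arrays, and 2 of its 10 probe sets, other than the one used, were higher without overlap. The adhesion gene CDH1, E-cadherin, was higher with a difference of 0.43, on 1 of 2 probe sets.

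Most interferon-stimulated and NF-kB genes overlapped. Of 21 measured interferon-stimulated genes, 4 were higher, 1 was lower and 16 overlapped, with a median of 0.13. Differences were below 0 for 8 genes and above 0 for 13. The largest, 1.58, was that of IFI44L, which overlapped. In the sets with low ARMCX3, low FGFR3 probe set and high GAS1, IFI44L differed by 0.59, 2.12 and 1.66. BST2, tetherin, had 8.33, 8.46 and 8.74 on the low-TACC3 arrays, against 7.06, 7.59 and 7.93 on the other arrays. IRF9, a part of the interferon-activated transcription factor, had 9.93, 10.53 and 10.68 on the low-TACC3 arrays, against 9.27, 9.72 and 9.90 on the other arrays, and MX2, an antiviral GTPase, had a difference of 0.71. OAS3 was lower with -0.52, on 1 of its 2 probe sets. Of 12 NF-kB genes, 2 were higher and 10 overlapped, with a median of 0.01. Over all genes 2.90% were higher, so this count says little about the list. NFKBIA, an NF-kB inhibitor, had 11.15, 11.54 and 11.71 on the low-TACC3 arrays, against 10.53, 10.76 and 11.10 on the other arrays, on 1 of 2 probe sets. TNFAIP3 had a difference of 0.39, also on 1 of 2.

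**Figure D4:**
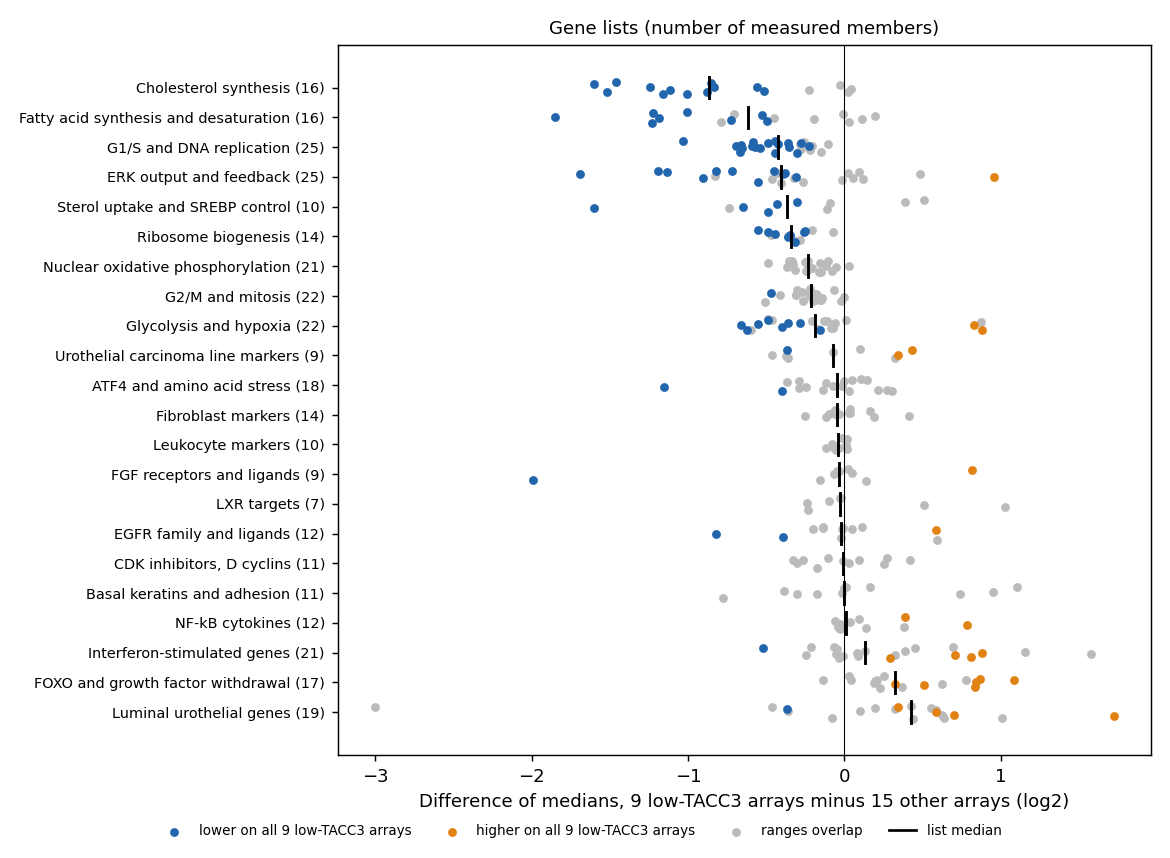
Each point is a measured gene of a list, placed by the difference of its medians, 9 low-TACC3 arrays minus 15 other arrays, on the log2 scale. Blue points were lower and orange points higher on all low-TACC3 arrays, grey points overlapped, and bars give list medians, which run from -0.87 for cholesterol synthesis to 0.43 for luminal urothelial genes.

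The higher genes with the widest gaps outside these lists were led by TRIM22, an antiviral tripartite motif gene, with 8.63, 9.24 and 9.40 on the low-TACC3 arrays, against 5.45, 5.89 and 7.33 on the other arrays, a 10.2-fold higher median. MUC15, a membrane mucin, had 10.05, 10.39 and 10.59 on the low-TACC3 arrays, against 8.07, 8.41 and 9.24 on the other arrays. VTCN1, the B7-H4 immune checkpoint ligand, had 7.68, 8.20 and 8.46 on the low-TACC3 arrays, against 6.45, 6.59 and 6.76 on the other arrays. None of the 3 overlapped, but TRIM22 spanned 5.45 to 7.33 within the other arrays. ERP27, a chaperone of the endoplasmic reticulum, had 10.91, 11.06 and 11.20 on the low-TACC3 arrays, against 8.71, 9.53 and 9.76 on the other arrays. PDE8B, a cAMP phosphodiesterase, had 9.20, 9.46 and 9.66 on the low-TACC3 arrays, against 7.36, 7.90 and 8.14 on the other arrays, on all 3 of its probe sets. SEMA3E, a semaphorin, had a difference of 1.46. SCNN1G, a subunit of the epithelial sodium channel, and ATP6V1B1, a subunit of the vacuolar proton pump, had 1.24 and 1.28. MAN1A1, a mannosidase of glycan trimming, had 1.27, the protocadherin gene PCDHB14 1.37 and the interleukin 1 receptor gene IL1R1 1.20. PPP1R3B, which directs a phosphatase to glycogen, had 1.03, and MYCL, a MYC family gene, had 1.08. SCNN1G, ATP6V1B1, IL1R1 and MYCL were higher on 1 of 2 probe sets each, and PPP1R3B on 2 of 3.

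Differences within like arrays were also set out, with the marks above chosen after the data were seen. Among arrays with low ARMCX3, with the low FGFR3 probe set and with high GAS1, 3 low-TACC3 arrays stood against 3 others each time. There were 1319 genes (6.67%) lower and 1508 (7.63%) higher without overlap in each of the 3 sets, and these include by construction the 612 and 574 above. MMP1 differed by -3.67, -4.11 and -2.88 in the sets with low ARMCX3, low FGFR3 probe set and high GAS1. DUSP6 differed by -1.86, -1.91 and -1.68, SCD by -1.68, -1.94 and -1.39, and TRIM22 by 2.35, 3.42 and 2.25, in the same order. ABCG1 differed by -0.17, 1.14 and 0.27, so its sign was not shared.

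Markers of the cell line and of other cell types were compared as well. EPCAM, an epithelial surface gene, had 12.73, 12.87 and 12.95 on the low-TACC3 arrays, against 12.79, 12.94 and 13.05 on the other arrays. KRT7 had 12.65, 12.75 and 13.37 on the low-TACC3 arrays, against 12.82, 13.12 and 13.34 on the other arrays, and both ranges overlapped. Of 9 measured markers of urothelial carcinoma lines, KRT18 was lower, CDH1 and GATA3 were higher, as given above, and 6 overlapped, with a median of -0.07. All 14 fibroblast and all 10 measured leukocyte markers overlapped, each list with a median difference of -0.04. The summed log2 level of the fibroblast markers ran from 107.9 to 110.7 on the low-TACC3 arrays and from 108.1 to 110.5 on the other arrays, and that of the leukocyte markers from 67.8 to 69.7 on the low-TACC3 arrays and from 67.4 to 70.1 on the other arrays. The defining markers COL1A1 and PTPRC had differences of -0.11 and -0.05. LUM, lumican, had the largest difference of the fibroblast markers, with 13.26, 13.43 and 13.56 on the low-TACC3 arrays, against 12.84, 13.02 and 13.36 on the other arrays.

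The comparison that the study's design implies was tested by label. It asks whether the change with doxycycline, averaged over the 3 FGFR3 hairpin lines, differs from that in the EGFP line. With limma and Benjamini-Hochberg adjustment over 19775 genes, 0 genes (0%) passed at 0.05, and 428 had an unadjusted p under 0.05, where 989 are expected by chance. The labelled differences of TACC3, DUSP6, SCD and MMP1 were -0.22 ± 0.53, -0.62 ± 0.82, -0.86 ± 0.85 and -1.55 ± 1.61 (SE), each with a limma adjusted p of 1.00. The low-TACC3 arrays lay in 7 of the 8 labelled groups, and no result by side is a result for doxycycline or for a hairpin. No labelled group was wholly low, so the spread within groups held the differences between the sides. The 0 genes thus do not show that the hairpins changed no gene.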

How the data were processed

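Expression was measured on 24 Affymetrix arrays of RT112 cells. The deposited table gives log2 levels for 54675 probe sets, made by the authors with RMA (background correction, quantile normalization and summary per probe set) in the affy package, per the submitters' processing notes, which give no versions. The genome build and probe grouping are not given in the sources used here. An array has no read depth, and the number of arrays limits the precision. Names came from the platform annotation in GEO, where 41097 had 1 symbol, 1801 several and 11777 none. The last 2 kinds were left out. Of those with 1 symbol, 41043 matched a RefSeq gene table (GRCh38.p14) by Entrez identifier, with 0 symbols changed. For each gene the probe set with the highest mean was taken, which left 19775 genes, with no filter on low values. Arrays were divided by TACC3 at a limit given with the rule, as described above, and the sides were compared by ranges and medians (Python 3.11.15, pandas 2.3.3), with no test. Labels gave 8 groups of 3, fitted with limma 3.58.1 in R 4.3.3 with 1 shared spread (16 residual degrees of freedom, 3.13 from the prior). P-values measure the spread between arrays, which may be technical. Labels share replicate numbers. Deviations from group means of arrays with the same number correlated at a median of 0.13 (-0.73 to 0.88, 84 pairs), so the numbers did not pair the arrays.

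The named genes are FGFR3, TACC3, the 15 lower and 15 higher genes with the widest gaps, up to 4 separated members of each list (or else the 1 with the largest difference), and the 6 genes of widest range on the low-TACC3 arrays with ARMCX3 and GAS1. Other list members are named with their differences. The members and lists were chosen with earlier results of these data known. Both procedures were tested on simulated data, but their behaviour on arrays that fall into sets of like arrays was not tested. The alternatives were other probe set choices, filters, centring, a minimum gap, the FGFR3 limit, array weights, a replicate block and each array left out.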

Additional observations from a re-analysis of the deposited data

Results flagged for a closer look

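Among the 9 low-TACC3 arrays, 1 of 89 values examined stood apart from its group by Dixon's criterion, under which chance alone sets apart about 1 group in 20. FASN had 10.69 on the array labelled 4-1 without doxycycline, replicate 1, and the next highest value was 10.47, a gap of 0.698 of the range. The other 15 arrays had 11.39 or more, so FASN stayed without overlap.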

How the results depend on the processing

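Dividing the arrays at the limit of the dimmer FGFR3 probe set gave the same 9 arrays by construction, since that limit belongs to the rule, and it supports nothing. Where every probe set of a gene had to divide the sides, 329 genes were lower and 209 higher, and with a gap of at least 0.2 there were 138 and 129. With 1 array left out, the counts ran from 613 to 735 lower and from 574 to 634 higher. In settings added after the data were seen, leaving out the arrays with low ARMCX3 gave 1588 lower and 1146 higher genes. Leaving out those with high GAS1 gave 781 and 1182, those with the low FGFR3 probe set 762 and 671, and those with no mark 700 and 683. Such counts can only stay or grow when arrays are left out, and why they differed between these settings was not tested. The labelled comparison called 0 genes under every alternative run, 0 with the replicate block (470 at an unadjusted p under 0.05), 0 with array weights (2755) and 0 with 1 array left out (295 to 1021). The labelled groups mixed the sides in each of these runs, so these counts do not show that the hairpins changed no gene. With each array centred on its median, 503 genes were lower and 403 higher. Values of named genes and of lists are medians over quantile-normalized arrays. None of the separated named genes changed sign under the alternatives, but for most alternatives this was fixed in advance. Leaving out arrays, the level filter and the FGFR3 limit cannot turn the sign of a gene without overlap. Only the choice of another probe set and the centring could have done so. Of 2752 named gene values over the alternatives, 40 moved by at least 1 SD of the low-TACC3 arrays, and 13, all of overlapping genes, changed sign. Of 704 list medians, 13 moved by at least 1 SD of the list's mean level on those arrays, and 37 changed sign.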
